A study of Caenorhabditis elegans with 6 samples.

Results

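A set of 118 protein-coding genes carried antisense 22G-RNAs in wild-type *Caenorhabditis elegans* and nearly none in the *lotr-1(sam117)* mutant. They are called losing genes here and were selected on these raw counts. A gene was taken when it had at least 50 raw counts in each of 3 wild-type libraries and at most 10 in each of 3 *lotr-1(sam117)* libraries. Of 22336 loci in the files (19725 protein-coding genes among them), 5612 protein-coding genes met the wild-type minimum, and these are called reference genes below. The losing genes were 2.1% of them. Since the counts of both genotypes chose the members, their fall is the rule itself, and it is described below without a test. F22F1.2, Y102A5C.36, Y53F4B.17 and *afmd-2* belong to the set, are included in every count of it and are not described one by one, which leaves 114 genes.

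Wild-type animals were of the N2 strain. The mutants were of strain RFK1256, whose *sam117* allele lacks the coding sequence of *lotr-1* and keeps a tag of FLAG and GFP in its place. Both genotypes were whole gravid adults on OP50 bacteria, collected 65 hours after arrested L1 larvae were put on plates, and each gave 3 libraries of small RNAs from RNA treated with RppH. The mutant was 1 allele in 1 strain, and the labels do not say whether replicates came from separate cultures, so any p-value measures only the spread between these libraries. 22G-RNA counts are not mRNA levels, and markers of the animals' tissues could therefore not be read from them. In whole animals, fewer cells that make 22G-RNAs against a gene and fewer 22G-RNAs per cell cannot be told apart.

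22G-RNAs are made by RNA-dependent RNA polymerases on target transcripts, begin with a guanosine and are complementary to the RNA they were copied from. Argonaute proteins bind them, and depending on the Argonaute they silence the target in the cytoplasm or nucleus or mark it as a germline gene that is to stay expressed. Much of this takes place in germ granules beside the nuclear envelope, and LOTR-1, a protein with LOTUS and Tudor domains, is found in such granules.

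Libraries held between 3150716 and 3829101 counts, all of them 22G-RNAs at listed loci. The deleted gene *lotr-1* (chromosome I, 8487618 to 8490938, plus strand, WBcel235) was represented by 477, 522 and 563 reads in N2 and by 40, 49 and 60 in the mutant, lower in each mutant library than in any wild-type one. The count covers the whole locus and was not restricted to the deleted stretch, and the source of the remaining reads was not tested. Fold differences and log2 fold changes below use median-of-ratios size factors, which averaged 1.32 in wild-type and 0.776 in the mutant. Scaling to equal totals instead moved the median log2 fold change of all tested loci from 0.04 to -0.75. DESeq2, tested against a 2-fold change, called 951 loci down and 952 up at 10% FDR (8.14% and 8.15% of 11682 tested), and with total-count scaling the split was 2331 to 498. All 118 losing genes were among the loci called down, against 14.1% of the reference genes. Nothing is read from the members' share, because the same contrast chose them.

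The losing genes together had 27993, 30027 and 32937 counts in wild-type replicates 1 to 3. In *lotr-1(sam117)* they had 515, 559 and 510. As a share of the library this was 0.872% ± 0.0145 in wild-type and 0.0150% ± 0.000311 in the mutant (SD, n = 3). Per gene the pooled fold difference lay between 4.29 (*rps-21*) and 594 (F22F1.2), with a median of 21.9, and 94 of the genes were at least 10-fold lower. On the log2 scale the median change was -4.45, beside -0.17 among the other 5494 reference genes. The fold of a losing gene follows its wild-type count, since the rule holds the mutant count at or below 10. Summed over the 3 mutant libraries, 2 to 28 counts remained per gene, with a median of 14. In 20 genes at least 1 mutant library had no count, and in no gene were all 3 mutant libraries at 0. Counting intervals of folds below are 95% exact conditional binomial intervals, which cover counting error only, because reads after PCR are not independent molecules.

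**Figure D1:**
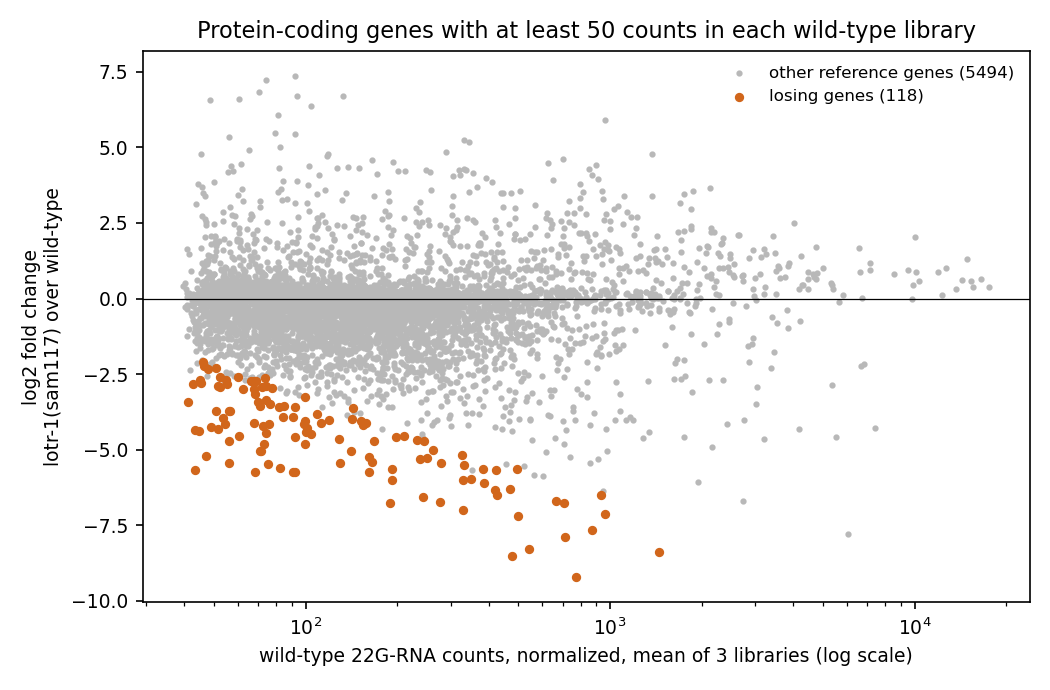
Wild-type level (normalized counts, mean of 3 libraries, log scale) against the log2 fold change of *lotr-1(sam117)* over wild-type for the 5612 reference genes; orange points are the 118 losing genes and grey points the other 5494. The losing genes lie between -2.09 and -9.22 and form the lower left edge of the cloud, which the rule sets.

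Wild-type levels of losing genes were not high for genes with 22G-RNAs, and the rule itself favours moderate levels. Their mean normalized wild-type count lay between 41.1 and 1449, with a median of 92.2, beside 148 for the other reference genes. Per kilobase of exon the order was the opposite, with medians of 111 and 88.8. Wild-type replicates of a losing gene differed by a coefficient of variation of 8.11% at the median and 35.2% at most (*lim-9*).

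Of the losing genes not set aside, the 15 with the highest mean wild-type level had between 424 and 1341 counts in every wild-type library and between 0 and 9 in every mutant library. Only 3 of these 15 have a gene name. Counts are given for replicates 1, 2 and 3, and the numbers after "against" are those of the mutant. *ndx-2* (WBGene00003579, chromosome V, 2662964 to 2665003, minus strand), which encodes a Nudix hydrolase, an enzyme family that cleaves nucleoside diphosphate compounds, had 1189, 1281 and 1341 counts in wild-type. In the mutant libraries 4, 3 and 9 counts were found. The genotypes lay far apart, and the pooled level was 140-fold lower in the mutant (interval 85.9 to 245).

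The next genes in order of wild-type level have sequence names only. C05D2.8 (WBGene00015469, chromosome III, 5607509 to 5610346, minus) had 1170, 1274 and 1240 wild-type counts against 7, 8 and 9. K10D2.8 (WBGene00189952, chromosome III, 5188726 to 5190175, plus) had 1063, 1150 and 1248 against 2, 4 and 4. These were 90.0-fold and 203-fold lower. F10E9.2 (WBGene00017354, chromosome III, 8312693 to 8314324, plus) had 880, 930 and 1013 wild-type counts against 3, 1 and 3. Its fold of 236 (interval 115 to 589) was the largest of the genes described here. All 3 genes lie on chromosome III.

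Y34D9A.8 (WBGene00021333, chromosome I, 1050651 to 1053826, minus) had 821, 937 and 1051 wild-type counts against 3, 6 and 6. K07A1.3 (WBGene00010610, chromosome I, 9587148 to 9588153, minus) had 782, 904 and 948 against 7, 8 and 0. The empty library was mutant replicate 3, whereas the other mutant libraries of K07A1.3 were near the rule's limit. T25D3.3 (WBGene00020797, chromosome II, 152583 to 154945, plus) had 590, 648 and 738 against 1, 6 and 1. K07C5.13 (WBGene00050947, chromosome V, 10342055 to 10342938, plus) had 585, 646 and 731 against 6, 8 and 9. T25D3.3 was 145-fold and K07C5.13 was 50.0-fold lower, although their wild-type counts were alike.

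*exc-9* (WBGene00017644, chromosome IV, 7939807 to 7941019, minus) encodes a LIM domain protein needed for the shape of the excretory canal. It had 581, 622 and 659 wild-type counts against 5, 5 and 4. ZC404.2 (WBGene00043952, chromosome V, 6787952 to 6788460, plus) had 489, 571 and 638 against 4, 6 and 1. Y48B6A.10 (WBGene00012981, chromosome II, 14214409 to 14217139, plus) had 519, 544 and 605 against 7, 4 and 8. No wild-type library of these genes came near a mutant one, which the rule and the choice by wild-type level set. *gpr-158* (WBGene00009558, chromosome I, 14760638 to 14768989, minus), predicted to encode a G protein-coupled receptor, had 521, 546 and 592 wild-type counts against 7, 1 and 4.

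F36A2.3 (WBGene00009453, chromosome I, 8797456 to 8801704, plus) had 505, 464 and 560 wild-type counts against 4, 6 and 3. C09G5.7 (WBGene00007489, chromosome II, 10714883 to 10716457, plus) had 424, 509 and 596 against 4, 9 and 5. C11D2.3 (WBGene00015701, chromosome IV, 6151813 to 6154677, plus) had 435, 480 and 470 against 3, 3 and 7. Folds of the 15 genes ran from 49.8 (C09G5.7) to 236 (F10E9.2).

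**Figure D2:**
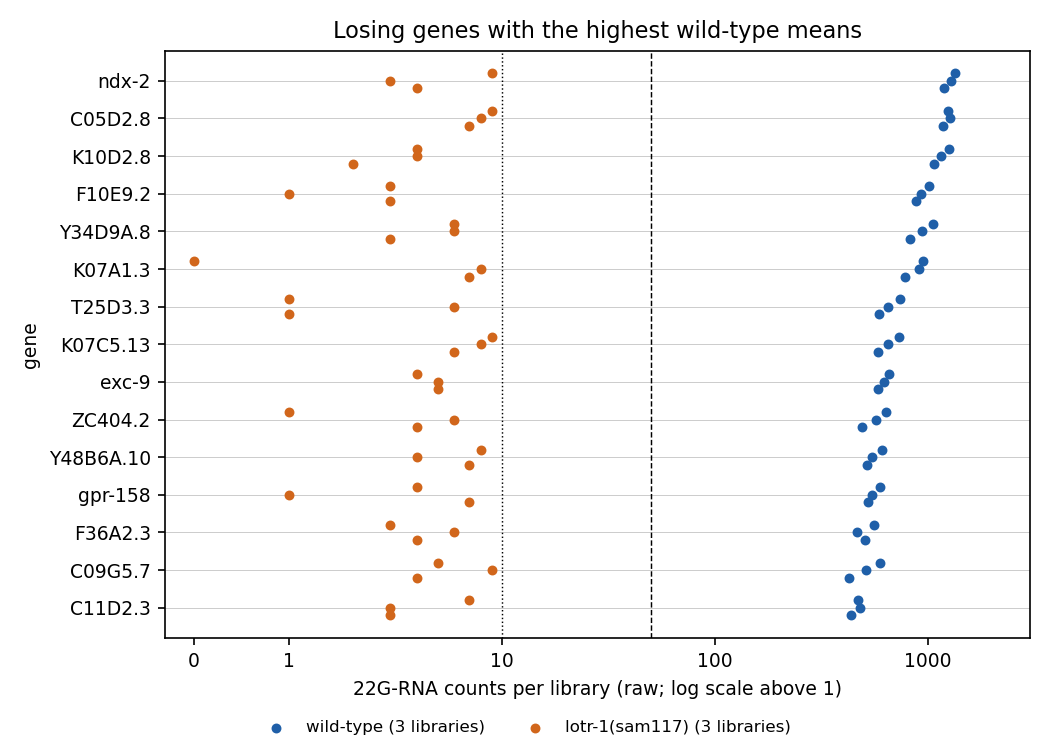
Raw 22G-RNA counts per library (log scale above 1) of the 15 losing genes with the highest wild-type means, the set-aside genes left out; each gene has 3 blue points (wild-type) and 3 orange points (*lotr-1(sam117)*), and the lines mark the limits of 10 (dotted) and 50 (dashed). Every blue point lies at 424 counts or more and every orange point at 9 or fewer.

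Of the 114 genes, 39 have gene names and 75 have sequence names only. The fold of the named genes had a median of 20.1 and that of the others 22.2. The named genes encode proteins of many kinds, and they are described by role. The role groups were assigned by hand, and some genes could stand in more than 1 of them. Receptors and their ligands, ligand-gated channels included, numbered 9, with a median fold of 24.1. *nlp-40* encodes a neuropeptide-like protein that the intestine secretes to time the defecation cycle, and it had 255, 237 and 289 wild-type counts against 8, 5 and 6. *frpr-15*, of the FMRFamide peptide receptor family, had 203, 210 and 251 against 4, 5 and 6. *npr-35*, of the neuropeptide receptor family, had 78, 87 and 110 against 8, 6 and 10. The lowest wild-type library of *npr-35* was thus 78 and its highest mutant library was at the rule's limit, so its fold was 6.72 (interval 4.42 to 10.7). *lgc-30*, of the ligand-gated ion channel family, had 182, 188 and 193 counts against 6, 7 and 8. *ver-1*, which encodes a receptor related to vertebrate VEGF receptors, had 54, 61 and 76 against 7, 8 and 7, a fold of 5.09, the smallest of this group.

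Among these receptors were 3 chemoreceptors, which detect odours and tastes in sensory neurons. *sre-36* had 147, 180 and 191 wild-type counts against 3, 1 and 3. *srsx-25* had 57, 70 and 59 against 0, 2 and 1. *str-172* had 50, 54 and 59 against 4, 4 and 1. Of these genes *sre-36* held the most 22G-RNAs, and *str-172* was at the wild-type limit of the rule.

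Genes of the synapse and the cilium were 3. *cla-1* encodes clarinet, a large protein of the presynaptic active zone, and had 400, 423 and 480 wild-type counts against 5, 3 and 4. *nphp-1* encodes nephrocystin-1 of the ciliary transition zone and had 82, 84 and 104 counts against 0, 2 and 1. *ift-43* encodes a subunit of intraflagellar transport, which carries cargo along the cilium, and had 146, 134 and 164 against 8, 4 and 3. With 27088 bp of exon, *cla-1* was the longest losing gene, and per kilobase its wild-type level was 12.1 normalized counts, one of the lower values in the set.

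The cuticle and secreted group had 5 members. *cht-2*, a chitinase gene, had 154, 254 and 238 wild-type counts against 2, 2 and 3. *cutl-7* and *cutl-14* encode cuticlin-like proteins. *cutl-7* had 106, 142 and 148 counts against 1, 0 and 7. *cutl-14* had 80, 97 and 127 against 3, 2 and 5. The folds were 54.1 for *cht-2*, 29.0 for *cutl-7* and 17.8 for *cutl-14*. The collagen gene *col-72* had 51, 54 and 68 counts against 1, 0 and 1. The hedgehog-like gene *grd-15* had 58, 78 and 85 against 10, 6 and 2. With 2 counts left in all mutant libraries, *col-72* had a fold of 50.7, and its interval of 13.8 to 422 was wide.

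Genes of muscle were *unc-54*, which encodes the major myosin heavy chain of the body wall, and *lim-9*, which encodes a LIM domain protein of muscle attachment. *unc-54* had 58, 59 and 89 wild-type counts against 3, 3 and 0. *lim-9* had 88, 61 and 58 against 2, 4 and 2. Wild-type replicates of both were spread more than the typical losing gene, and neither overlapped the mutant libraries, as the rule requires.

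Enzymes, carriers and channels, with *ndx-2* among them, were 8. *dgk-2* encodes a diacylglycerol kinase and had 294, 329 and 350 wild-type counts against 9, 6 and 7. *sms-2* encodes a sphingomyelin synthase and had 286, 277 and 266 against 7 in each mutant library. These lipid enzymes were alike in count, with folds of 25.9 and 23.1. *glb-18*, a globin gene, had 240, 242 and 278 counts against 1, 3 and 5. *tag-196* encodes a cysteine protease like cathepsin F and had 142, 158 and 173 against 5, 5 and 7. *fkb-5*, of the FK506-binding peptidyl-prolyl isomerase family, had 94, 121 and 113 against 0, 3 and 1. The fold of *tag-196* was 16.3, and *fkb-5* had the fewest mutant counts in this group. *best-23*, of the bestrophin chloride channel family, had 90, 91 and 114 counts against 1, 4 and 3. *rab-19*, which encodes a Rab GTPase of membrane traffic, had 58, 57 and 52 against 4, 9 and 1. Its fold of 6.99 was the smallest in this group.

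For nucleic acid functions 4 genes were found. *snpc-1.3* encodes a subunit of a complex that transcribes piRNA genes in the male germline, and it had 101, 93 and 113 wild-type counts against 9, 6 and 8. *lin-31* encodes a winged-helix transcription factor of vulval development and had 89, 95 and 91 against 3, 7 and 5. *trt-1* encodes the telomerase reverse transcriptase and had 60, 54 and 106 against 9, 10 and 1. Replicate 3 of both genotypes stood apart from the others at *trt-1*, where wild-type was highest and the mutant lowest. The nuclear hormone receptor gene *nhr-244* had 52, 63 and 56 counts against 0, 3 and 2. Its fold of 20.1 was the largest in this group.

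Genes for proteins of the small ribosomal subunit were *rps-17*, with 70, 62 and 75 wild-type counts against 3, 7 and 6, and *rps-21*, with 52, 59 and 72 against 10, 7 and 8. Their folds, 7.58 and 4.29, were among the smaller ones. *spd-3*, a gene needed for spindle position in the embryo, had 100, 90 and 93 counts against 8, 9 and 5. *pqn-32*, which encodes a protein rich in glutamine and asparagine, had 420, 419 and 472 against 8, 4 and 5. Of the named genes without a shared role, *pqn-32* had the highest counts. The F-box gene *fbxa-179*, whose family supplies adaptors of ubiquitin ligases, had 59, 50 and 70 against 5, 6 and 4. *nspg-7.1*, of a nematode-specific peptide family, had 52, 57 and 69 against 1, 2 and 2. *icap-1* had 142, 137 and 116 against 3, 4 and 5. In none of the 39 named genes did a wild-type library fall below a mutant one, as the rule requires.

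**Figure D3:**
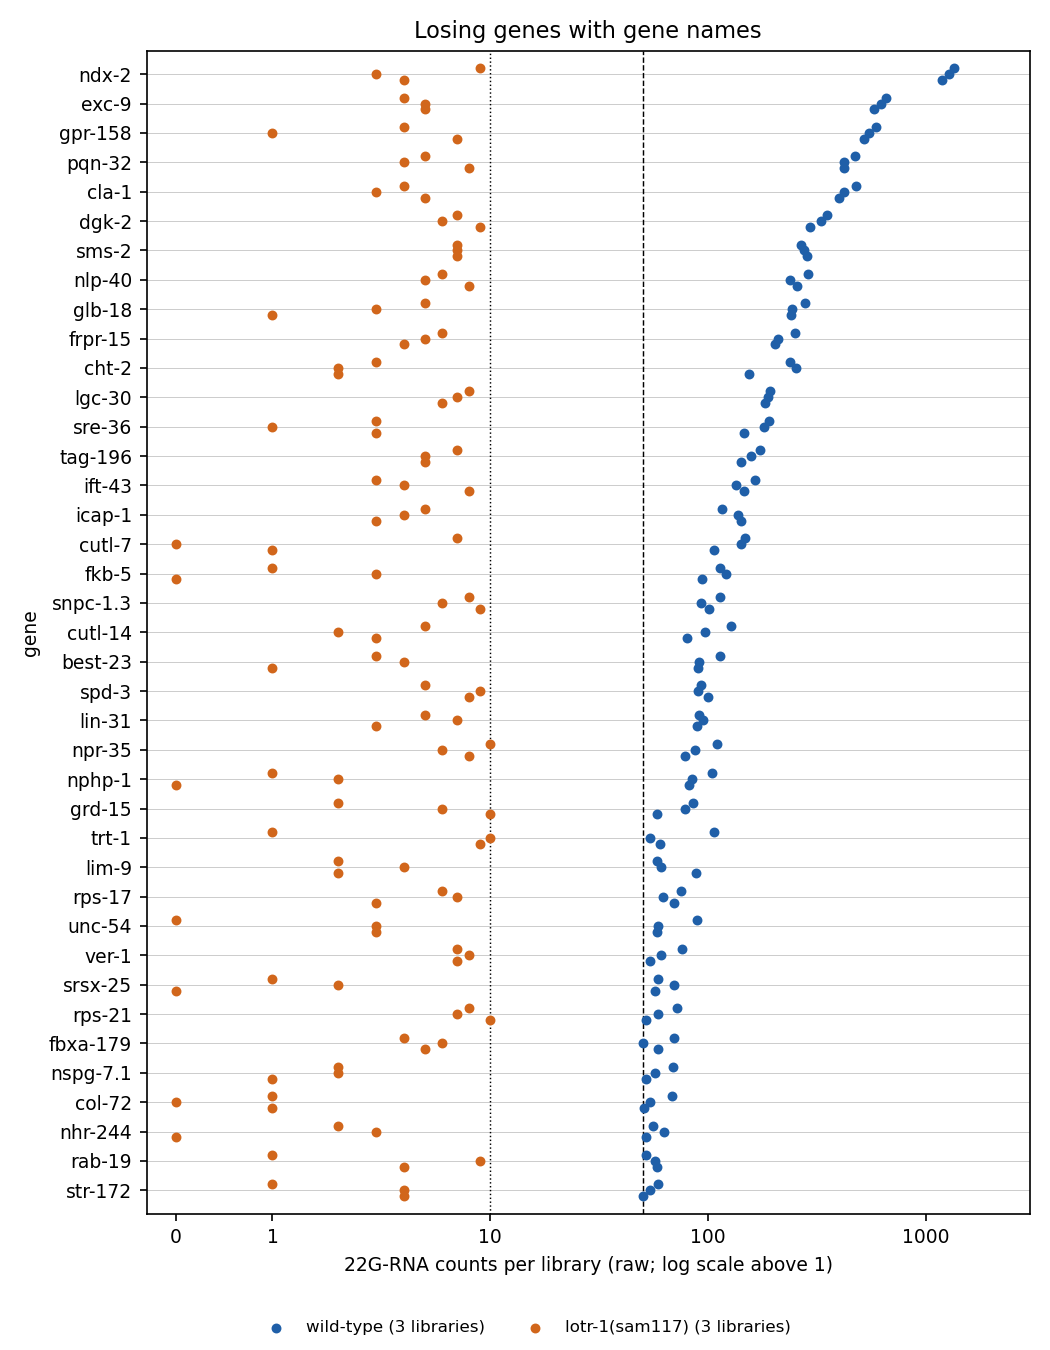
Raw 22G-RNA counts per library (log scale above 1) of the 39 losing genes with gene names, ordered by wild-type mean; each gene has 3 blue points (wild-type) and 3 orange points (*lotr-1(sam117)*), and the lines mark the limits of 10 (dotted) and 50 (dashed). The genes run from *ndx-2* at 1189 to 1341 wild-type counts to *str-172* at 50 to 59, and 7 genes have a mutant library at 0.

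The members nearest to the limits were as follows. Just inside the wild-type minimum were *str-172*, *fbxa-179* and *col-72*, whose lowest wild-type libraries had 50, 50 and 51 counts. Just outside it were R11H6.4 (49, 73 and 77 against 0, 3 and 2), F14D2.14 (49, 71 and 73 against 6, 8 and 2) and *ric-4* (48, 50 and 83 against 7, 7 and 2), which had the same pattern with 1 or 2 counts fewer. Just inside the mutant maximum were F31E8.4 (73, 116 and 105 against 9, 10 and 9), W02A2.8 (174, 183 and 211 against 8, 9 and 10) and *rps-21*. Just outside it were T19C3.5 (50, 80 and 83 against 2, 4 and 11), T23G11.11 (237, 211 and 258 against 11, 5 and 5) and *lag-2* (448, 444 and 505 against 1, 11 and 4), which encodes a Notch ligand of the germline stem cell niche. *lag-2*, outside the set, was 51.2-fold lower, a larger fold than most members had.

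The rule favours genes of moderate level, because a gene with many 22G-RNAs keeps more than 10 counts after a large fall. Among the reference genes 184 were at least 10-fold lower in the mutant, of which 94 were losing genes, and 91 were at least 20-fold lower, of which 64 were losing genes. Outside the set, 24 reference genes fell at least as far as the median losing gene. W09H1.4 had 3227, 3613 and 3990 wild-type counts against 19, 23 and 19. *cpn-4*, a calponin family gene, had 2254, 2596 and 2909 against 17, 28 and 23. *ins-17*, which encodes an insulin-like peptide, had 1161, 1234 and 1369 against 7, 12 and 8, and was kept out of the set by 1 library.

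Losing genes were shorter than other genes with 22G-RNAs. Their exonic length had a median of 1026 bp, beside 1621 bp for the other reference genes, and their span 1903 bp beside 2802 bp. They had a median of 5 exon blocks against 6. No losing gene had a single exon block, and only 73 of the other reference genes (1.33%) did, so nothing is read from this. These are descriptions, since tests over genes were not run. The rule used counts per whole gene, which can grow with exonic length, so it may itself favour shorter genes, and this was not tested.

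All chromosomes were represented. Chromosome I held 29 losing genes (24.6%), II held 28 (23.7%), III held 20 (16.9%), IV held 18 (15.3%), V held 16 (13.6%) and X held 7 (5.93%). Among the other reference genes the shares were 22.4%, 18.4%, 21.5%, 16.6%, 15.8% and 5.35%. Chromosome II thus had a larger share of losing genes and chromosome III a smaller one, by about 5 percentage points each. In the middle 50% of their chromosome lay 71 losing genes (60.2%), close to the 58.0% of the other reference genes. Within 1 Mb of *lotr-1* there were 8 losing genes (6.78%), namely T25G3.1, D2030.12, *trt-1*, F36A2.3, F29D10.3, *cutl-7*, ZK858.8 and *lim-9*, against 3.64% of the other reference genes. The nearest was *trt-1*, 274806 bp away. The mutant strain differs from N2 at *lotr-1* by construction, and whether it also differs in sequence around that gene was not tested.

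**Figure D4:**
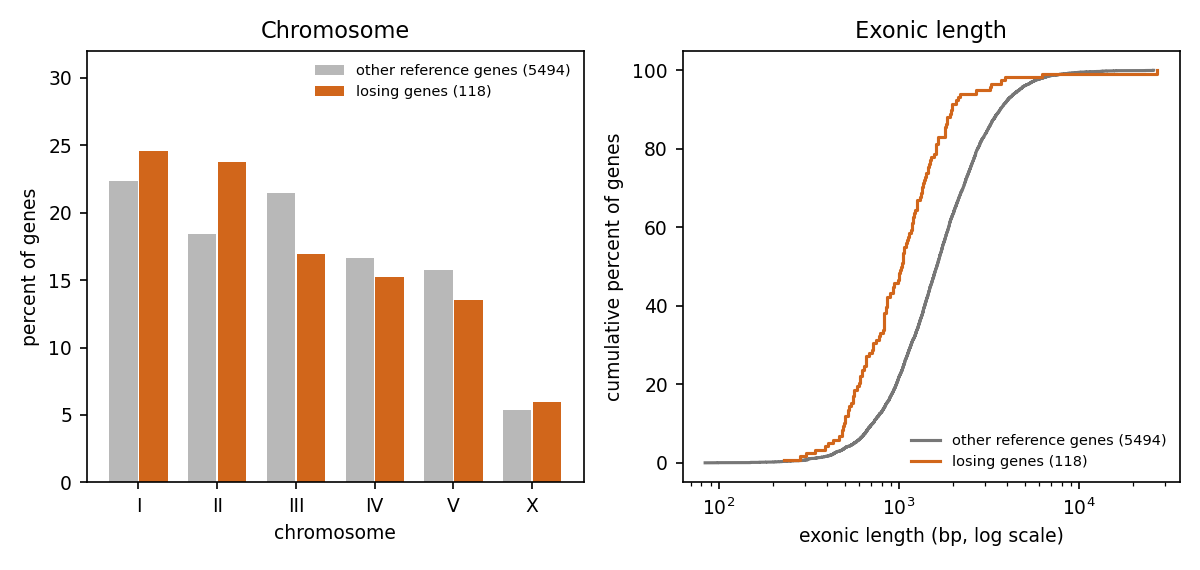
Left, the percent of genes on each chromosome for the 118 losing genes (orange) and the other 5494 reference genes (grey). Right, the cumulative percent of genes against exonic length in bp (log scale); the losing genes' curve lies to the left, with medians of 1026 and 1621 bp.

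The 59 members that have sequence names only and are not among the 15 above or the pairs below had between 53 and 516 counts in wild-type libraries and between 0 and 10 in mutant libraries. On chromosome I they were B0041.11, B0205.12, C03D6.1, D2030.12, F29D10.3, F31C3.6, F53G12.8, K09H9.5, T10B11.5, T25G3.1, Y44E3A.1, Y65B4BL.7 and ZK858.8, with a median fold of 31.8. Of these C03D6.1 had the largest fold, 128, with 350, 445 and 516 wild-type counts against 2, 4 and 0. On chromosome II they were C05C10.7, C06A1.3, C06C3.10, C15F1.5, C56C10.9, EEED8.2, F14D2.5, F31E8.4, F43G6.8, F52C6.4, F54D10.4, T07F8.1, Y39G8C.2, Y49F6A.5 and Y53F4B.1, with a median fold of 10.2 and no more than 158 counts in any library. On chromosome III they were C02F5.10, C13B9.2, C23G10.5, C30A5.10, F53A3.1, F58A4.1, F59B2.9, H05C05.4, H14E04.3, T05G5.4, T16G12.8, T16H12.13, Y71H2AL.2, ZK512.1 and ZK652.8, with folds from 7.86. F58A4.1 was the furthest of them, at 107-fold, with 353, 316 and 424 counts against 1, 4 and 1.

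On chromosome IV the remaining members were C27B7.9, C30H6.8, F49E11.2, K08D12.4 and ZK616.3, with a median fold of 18.9 and at most 112 counts. On chromosome V they were C25D7.15, T10B5.4, T22F3.12, W01A11.7, Y46H3C.5, Y47A7.2, Y51A2A.16 and ZK836.3, with a median fold of 23.2. T10B5.4 had 307, 316 and 334 wild-type counts against 2 in each mutant library, the largest fold of these genes at 93.5. On the X chromosome they were F36G3.2, T03G6.3 and T24D5.6, with folds from 7.44 to 53.6.

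Losing genes were mostly scattered. Within 20 kb of each other lay 5 pairs, none of them directly adjacent. W02A2.8, *srsx-25* and *rab-19* lie in a row on chromosome IV, 6580 bp and 13619 bp apart, with 1 and 6 listed genes between them. *ift-43* lies 5969 bp from C25H3.7 (69, 72 and 65 counts against 8, 3 and 9) on chromosome II. *nphp-1* lies 9988 bp from D2089.8 (70, 74 and 94 against 10, 6 and 7) on the same chromosome. *cutl-14* lies 16925 bp from B0511.11 (68, 94 and 77 against 1, 2 and 3) on chromosome I. Both named genes of the cilium were thus in pairs, each with a gene of sequence name only, and with 3 and 4 listed genes between. Members with sequence names only were given no role, and such pairs were not counted among the other reference genes.

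The rule did not use the counts listed for the genes on either side, so these were compared with the test across all loci. A same-strand gene whose exons overlap a losing gene may still share reads with it. A neighbour is the protein-coding gene, pseudogene or lincRNA whose start comes next before or after a losing gene. Of 235 neighbours, 168 were tested, 21 were called down (12.5%) and 7 up (4.17%), with 47 and 3 under total-count scaling. The background with size factors was 8.24% down and 7.66% up among all 11503 listed genes tested. Their median log2 fold change was -0.12, and that of the listed genes was 0.03. With at least 50 counts in each wild-type library there were 119 neighbours, of which 16 (13.4%) were called down. Of the 5494 reference genes outside the set, 672 were called down. The 14.1% of all reference genes includes the losing genes, which cannot be neighbours. The loss at a losing gene was therefore not shared by most genes beside it.

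By strand the calls were as follows. On the same strand as the losing gene, 15 of 79 tested neighbours were called down (19.0%) and 4 up, with a median log2 fold change of -0.43. On the opposite strand, 6 of 89 were called down (6.74%) and 3 up, with a median of 0.02. Within 1 kb these were 13 of 59 and 3 of 69. Among neighbours with the wild-type minimum they were 11 of 60 and 5 of 59, where 672 of the 5494 reference genes outside the set were called down. With total-count scaling 34 same-strand and 13 opposite-strand neighbours were called down, where 20.2% of all listed genes were called down and 4.06% up. Beside the other reference genes 8.28% of same-strand and 8.73% of opposite-strand neighbours were called down. Beside reference genes that were themselves called down but were not losing genes, the shares were 8.35% and 9.49%. No test of the difference between the strands was made, and genes next to each other are not independent. Same-strand neighbours with overlapping exons, such as R09A8.9 beside T24D5.6, were not left out of these counts. Their reads may be partly those that the rule used, which cannot happen on the opposite strand. The share of library counts at all neighbours together was 1.29% ± 0.0207 for wild-type libraries and 0.803% ± 0.00271 for mutant ones (SD, n = 3). With size factors in place of library totals the direction was the opposite, at 34040 ± 60.6 normalized counts for wild-type and 36480 ± 122 for mutant libraries, so no direction is given for this sum. In both scalings the exact permutation p (two-sided) was 0.1, and 3 libraries against 3 can give no smaller one.

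A few neighbours fell with their losing gene. *col-45*, a collagen gene beside F53G12.8 on the same strand, had 313, 345 and 371 wild-type counts against 35, 38 and 42. It fell by 2.39 on the log2 scale (SE 0.190, adjusted p by DESeq2 3.23e-12). *fut-3*, a fucosyltransferase gene 105 bp from *ift-43* on the same strand, had 217, 236 and 281 counts against 31, 33 and 24. It fell by 2.29 on the log2 scale (SE 0.220, adjusted p by DESeq2 5.73e-08). T16H12.2, 218 bp from T16H12.13 on the same strand, had 288, 309 and 375 against 33, 30 and 48, and T13H5.8, 228 bp from *cht-2* on the same strand, had 165, 151 and 195 against 13, 22 and 34. In each of these genes the genotypes did not overlap, which their choice required, and the mutant kept more than 10 counts in every library.

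On the opposite strand, *dcp-66*, 11684 bp from T25G3.1, had 456, 526 and 556 wild-type counts against 58, 65 and 66, and fell by 2.25 on the log2 scale (SE 0.152, adjusted p by DESeq2 2.06e-15). Pseudogenes next to set-aside genes also fell. Y53F4B.16, on the strand opposite Y53F4B.17, had 936, 895 and 975 counts against 1, 4 and 5, and Y102A5C.35, on the strand of Y102A5C.36, had 1574, 2034 and 2135 against 104, 149 and 122. Counts at pseudogenes are uncertain where a read also matches another locus. One same-strand neighbour, R09A8.9, had 22, 25 and 31 counts against 0 in each mutant library, and its exons cover 37.1% of the exonic length of T24D5.6, so reads there may have been counted for either gene.

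Some neighbours rose while the losing gene beside them fell. *ncs-6*, a neuronal calcium sensor gene 953 bp from *col-72* on the same strand, had 19, 17 and 29 wild-type counts against 204, 216 and 191, and rose by 4.01 on the log2 scale (SE 0.233, adjusted p by DESeq2 1.11e-36). Y87G2A.16, 1101 bp from *grd-15* on the same strand, had 95, 101 and 142 counts against 962, 993 and 941. Its rise was 3.88 on the log2 scale (SE 0.110, adjusted p by DESeq2 5.85e-149). *elo-9*, a fatty acid elongase gene 1312 bp from Y53F4B.1 on the same strand, had 289, 309 and 360 counts against 1031, 1203 and 1024. It rose by 2.54 on the log2 scale (SE 0.0805, adjusted p by DESeq2 2.16e-79). These 3 genes were also called up when libraries were scaled to equal totals, whereas the other 4 neighbours called up were not.

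**Figure D5:**
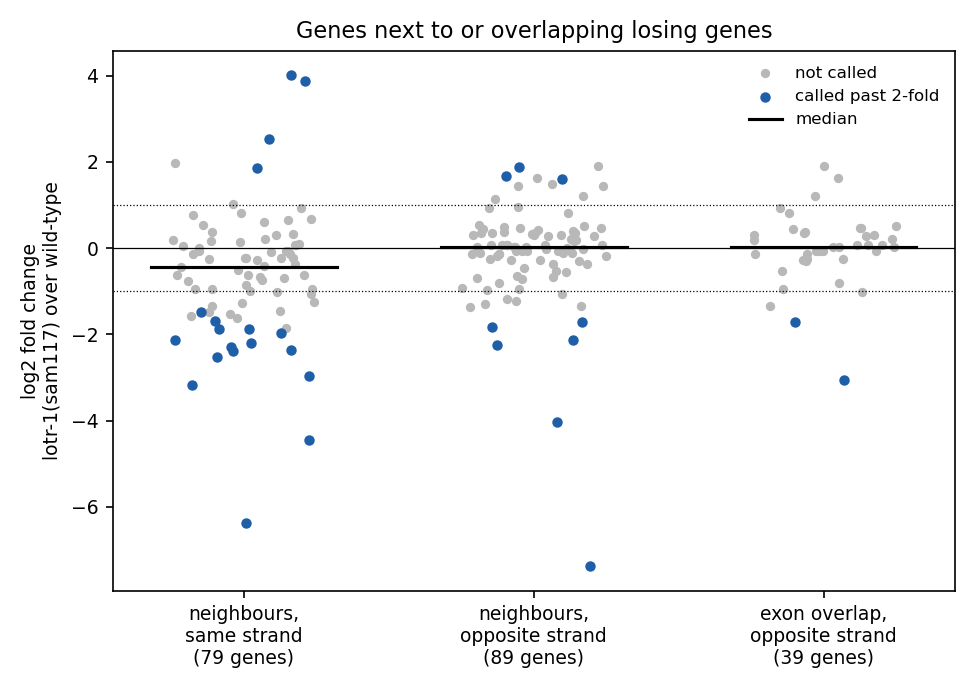
Log2 fold change (*lotr-1(sam117)* over wild-type) of tested genes beside losing genes on the same strand (79) and the opposite strand (89), and of tested genes whose exons overlap a losing gene on the opposite strand (39); each point is a gene, blue points were called past 2-fold (dotted lines at -1 and 1), and the thick line is the median. The same-strand median is -0.43, and the medians of the other groups are 0.02 and 0.03.

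Counting used strand, so a losing gene and a gene that overlaps it on the opposite strand do not share reads. Exons of 45 losing genes were overlapped by a gene on the opposite strand. Of 39 such partners tested with DESeq2, 2 were called down and none up (0 up at an unadjusted p under 0.05, and 2 up in edgeR against no change). Among all listed genes DESeq2 called 8.24% down and 7.66% up, and edgeR, with estimates past 2-fold, 20.1% and 16.6%. The partners' median log2 fold change was 0.03. The partners called down were *dcap-2*, a decapping enzyme gene opposite *afmd-2*, with 288, 357 and 400 counts against 24, 27 and 22, and C02F5.13 opposite C02F5.10, with 106, 132 and 126 against 19, 25 and 21. The call of C02F5.13 (adjusted p by DESeq2 0.0623) was lost whichever library was left out and with a replicate block, at log2 fold changes from -1.67 to -1.78, beside -1.72 with all libraries.

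A few partners encode proteins of the small RNA pathways or germ granules, and the share of such genes among all listed genes was not counted. The exons of D2030.12 overlap by 12 bp those of *prg-1*, which encodes the Argonaute that binds piRNAs. D2030.12 had 61, 75 and 87 wild-type counts against 2, 1 and 0, whereas *prg-1* had 2294, 2525 and 2835 against 1660, 2031 and 1734. *frpr-15* overlaps *parn-1*, which encodes a nuclease that trims piRNAs, and *parn-1* had 2453, 2934 and 3116 counts against 2867, 3127 and 2752. Y65B4BL.7 (308, 351 and 333 against 7, 6 and 2) overlaps *deps-1*, which encodes a germ granule protein and had 372, 386 and 402 against 217, 280 and 226. T10B5.4 overlaps *knl-3*, a kinetochore gene, with 803, 946 and 1025 counts against 565, 686 and 608. None of these 4 partners passed the test against 2-fold. Their log2 fold changes were 0.27 for *prg-1*, 0.81 for *parn-1*, 0.08 for *deps-1* and 0.19 for *knl-3*, and with total-count scaling they were -0.52, 0.02, -0.71 and -0.60, so a direction is not given for them.

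On the same strand, exons of 7 losing genes were overlapped by another gene, by 16.6% of the losing gene's exonic length at the median and 37.1% at most, and reads in these stretches are uncertain. Beside 8.24% of all listed genes, 2 of the 7 partners were called down, R09A8.9 and Y62E10A.20. The latter covers 31.1% of the exonic length of *rab-19* and had 99, 86 and 106 wild-type counts against 17, 13 and 7. On the log2 scale it fell by 2.21 (SE 0.352, adjusted p by DESeq2 0.00462), and without mutant replicate 3 its change was -1.94 and was not called.

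Of 21 gene families listed by name prefix, 5 hold 7 losing genes. These are the 3 chemoreceptor genes, *nhr-244*, *col-72*, *grd-15* and *fbxa-179*. The wild-type minimum was met by 19 chemoreceptor, 32 nuclear hormone receptor, 24 collagen, 4 hedgehog-like and 82 F-box genes. Of all reference genes 2.1% were losing genes. With so few losing genes per family, nothing is read from these counts. The prefixes also take a few genes of other kinds. Of 541 other genes tested in these families, 27 were called down and 55 up, beside 8.24% and 7.66% of all listed genes. With total-count scaling 67 were called down and 26 up, beside 20.2% and 4.06%, so the balance of the calls depends on the scaling. Among 108 other chemoreceptor genes tested 7 were called down and 9 up, and with total-count scaling 15 down and 5 up. Neither of these counts is read as a result about the family. *srh-213* had 61, 48 and 65 wild-type counts against 6, 8 and 4, and *sra-35* had 791, 808 and 963 against 2603, 3040 and 2708.

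Among 123 other nuclear hormone receptor genes, 9 were called down and 11 up (14 and 5 with total-count scaling). The shares of all listed genes were again 8.24% and 7.66% (20.2% and 4.06% with total-count scaling). *nhr-1* had 1556, 1670 and 1849 wild-type counts against 36, 42 and 44, and fell by 4.61 on the log2 scale (SE 0.149), whereas *nhr-10* had 63, 78 and 82 against 1679, 1919 and 1711, and rose by 5.34 (SE 0.112). The 59 other collagen genes had 4 called down and 6 up (9 and 3 with total-count scaling). *col-111* had 1493, 1404 and 1553 counts against 54, 63 and 44, whereas *col-71* had 2108, 2178 and 2332 against 5762, 6497 and 5641. Of 226 other F-box genes 25 were called up and 7 down. With total-count scaling 9 were called up and 26 down, where 4.06% of all listed genes were called up and 20.2% down. Of 25 other hedgehog-like genes 4 were called up and none down by DESeq2 (0 down at an unadjusted p under 0.05, and 3 down in edgeR against no change). In edgeR 20.1% of all listed genes were called down.

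The prefix lists of mutator and RNAi genes and of piRNA biogenesis genes held no losing gene, although *snpc-1.3*, described above, acts in piRNA transcription under another prefix. With 30 and 13 reference genes in these lists and 2.1% of reference genes in the set, nothing is read from this. Of 32 mutator and RNAi genes tested with DESeq2, 3 were called down and none up (0 up at an unadjusted p under 0.05, and 0 up in edgeR), beside 8.24% and 7.66% of all listed genes. With total-count scaling 9 were called down, where 20.2% of all listed genes were. In edgeR 16.6% of all listed genes were called up. *nrde-1*, which acts in nuclear RNAi, had 384, 378 and 447 wild-type counts against 52, 64 and 61. *rde-8*, which encodes an endonuclease of the RNAi pathway, had 131, 144 and 141 against 19, 17 and 14, and *eri-9*, a gene of the endogenous RNAi pathway, had 124, 121 and 133 against 16, 24 and 21. Of 13 genes for piRNA biogenesis 1 was called down (2 with total-count scaling), *tofu-2*, with 146, 182 and 178 against 13, 29 and 24. Each of these kept more than 10 counts in every mutant library.

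Outside protein-coding genes the same count limits were met by 5 of 287 pseudogenes and by 5 of 35 lincRNAs with the wild-type minimum. The lincRNA *linc-44* had 453, 472 and 505 wild-type counts against 4, 5 and 6, and Y48C3A.1 had 218, 284 and 323 against 3, 2 and 3. None of 151 transposon families met them. The mirrored limits, at most 10 counts in each wild-type library and at least 50 in each mutant library, were met by 20 protein-coding genes.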

How the data were processed

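Per the study, adapters were trimmed by cutadapt 2.4 and the authors mapped reads to WBcel235/ce11 with Bowtie 1.2.2 (1 mismatch, 1 random best position for a read with several) and counted with featureCounts 1.6.2. The deposited values are raw counts per locus of 22-base reads that start with G and lie antisense to exons (Ensembl 96) or transposons. Reads can move between near-identical loci by random placement.

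Biotypes, names and positions came from Ensembl 115 on the same assembly, with 1-based coordinates, and 171 gene identifiers that matched none were kept in the fits. Genotypes were compared over all loci with DESeq2 1.42.0 in R 4.3.3, using its Wald test against a 2-fold change in either direction, and loci were called at 10% FDR (Benjamini-Hochberg). Alternatives were TMM factors, total-count scaling, a test against no change, edgeR 4.0.16, other filters, a replicate block and leaving out each library. Calls against no change, by DESeq2 or edgeR, also needed an estimated change of more than 2-fold. Fits were tested on simulated data. The members and the lists were chosen with earlier results of these data known. Genes named were the 15 with the highest wild-type means, those with gene names or in pairs within 20 kb, and those at the limits. Also named were the 10 called neighbours with the largest changes, among those with a mean of at least 50 and no overlap between genotypes. Further genes were named after their values were seen. The total count per library was 3150716 to 3829101, so that 3 counts, the smallest share shown, was 7.84e-05% to 9.52e-05%. Paralogs and sequence features were not analysed here.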

Additional observations from a re-analysis of the deposited data

How the results depend on the processing

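The number of losing genes follows its limits. It was 118, and 62 with the limits on normalized counts, 115 on counts scaled to the mean total (106 shared), 251 and 65 with wild-type minima of 25 and 100, and 50 and 321 with mutant maxima of 5 and 20. Leaving out each library gave 119 to 138, which can only rise, since it removes a condition from the rule, and says nothing about stability. Their median log2 fold change was -5.24 with total-count scaling, -4.35 in edgeR and -4.57 to -4.44 without single libraries.

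Over all loci, total-count scaling called 2331 down and 498 up. With only estimates past 2-fold called, DESeq2 against no change gave 1937 and 1935, and edgeR against no change 1771 and 1549. For the neighbours these settings gave 47 and 3, 34 and 17, and 32 and 12. For the other genes of the 5 families they gave 67 and 26, 65 and 124, and 52 and 92. Apart from the change of null hypothesis or scale, the cause was not tested. Without single libraries the calls were 811 to 860 down and 829 to 852 up over all loci, 17 to 19 and 7 for the neighbours, and 20 to 23 and 43 to 49 for the families. Of the 28 called neighbours, 24 to 28 kept the call under each alternative fit. The log2 ratio of summed counts at all neighbours, mutant over wild-type, was -0.69 as a share of the library and 0.10 with size factors, an alternative chosen after seeing the data. Taking 2 neighbours on each side gave 13.0% called down.

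No pairing by replicate number was seen in the counts, and the labels do not say whether same-numbered libraries were made together. Deviations of same-numbered libraries correlated at 0.008, -0.013 and 0.032 over 4070 loci, and 2 of 6 libraries correlated best with their own number. With the replicate block, calls were 822 down and 834 up over all loci, 17 and 7 for the neighbours and 21 and 45 for the families.

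The alternatives for paralogs were not run, because protein sequences were not used here. Counts of 10 or fewer in the mutant leave wide intervals on each fold.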

Other observations

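Among the 24 reference genes that fell at least as far as the median losing gene but kept more than 10 counts in a mutant library were further genes of signalling and the cilium, chosen here after their values were seen. *tig-2*, which encodes a ligand of the TGF-beta family, had 755, 778 and 919 wild-type counts against 15, 14 and 14. *ser-3*, which encodes an octopamine receptor, had 687, 795 and 911 against 4, 5 and 15, and *arl-13*, which encodes a small GTPase of cilia, had 694, 681 and 855 against 6, 11 and 6. For *ser-3* and *arl-13* a single mutant library exceeded the limit. The largest count of these genes was that of F59C12.4, with 7779, 7589 and 8513 against 16, 28 and 20, a 219-fold lower level in the mutant.

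A pair of F-box pseudogenes met the same count limits as the losing genes. *fbxa-46* had 202, 299 and 388 wild-type counts against 4, 10 and 8, and *fbxa-121* had 57, 72 and 73 against 8, 4 and 7. Wild-type replicates of *fbxa-46* did not overlap its mutant libraries, as the limits require, and they differed widely among themselves.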
